A study of Mus musculus with 2 samples.

Results

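The GSK-J4-treated library held 66 sorted cells, chosen by the plate name that opens their column in the count table, of 151 cells in the series. The other 85 cells were uninjected. All cells came from retinae of C57BL/6 mice that carried the cpfl1 mutation of *Pde6c* and an eGFP reporter driven by the *Chrnb4* promoter. The paper states that this reporter labels cones exclusively, and the sort relied on it. No cell in the series was wildtype. GSK-J4 was given once into the vitreous at PN14, at 10 µM, and the retinae were taken 10 days later, at PN24, dissociated with papain and sorted by GFP fluorescence with 1 cell per well of a 96-well plate. Uninjected cells were also of PN24. The column names of the treated library hold the word adult, whereas the labels give PN24. The labels call both libraries cone photoreceptor. Each condition was 1 library on 1 plate, so treatment and plate cannot be told apart, no value has a replicate check and no test was run. Where uninjected values stand beside treated ones they are context only. The number of animals behind the plate was not given, and the study states more treated cells than the 66 wells analysed here.

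Cones are the photoreceptors of daylight and colour vision, and loss of the cone phosphodiesterase *Pde6c* makes them degenerate. Trimethylation of lysine 27 on histone H3 marks silenced genes. The Polycomb enzymes *Ezh1* and *Ezh2* write this mark, and the Jumonji demethylases *Kdm6a* and *Kdm6b*, which GSK-J4 inhibits, remove it.

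The wells were first checked against the label with 11 genes of cone phototransduction, all of which had a row in the filtered table. Of the 64 wells that passed the filter of the methods, 50 had no count on any of the 11 genes, which is 78.1% (exact 95% binomial interval 66.03 to 87.49%). The cone label was therefore not borne out by these markers in most wells. The cells are called GSK-J4-treated cells here.

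Cone marker counts lay in a few wells, each with its own gene. *Opn1mw*, the medium-wavelength opsin, had 304 counts, of which 303 lay in well C02 and 1 in well F01. *Pde6h*, the inhibitory subunit of the cone phosphodiesterase, had 88 counts in well E12 and 1 count in each of 4 other wells. *Arr3*, cone arrestin, had 37 counts in well F05 and 1 in each of 2 others. None of these 3 wells held a count of another cone marker, although a cone uses the whole set. *Cnga3*, a subunit of the cone cyclic nucleotide-gated channel, had 5 counts in well A06 and 1 in each of 3 others, and *Gnat2* and *Gnb3*, subunits of cone transducin, had 1 count each. The S-opsin *Opn1sw*, *Gngt2*, *Cngb3*, *Pde6c* itself and *Guca1a* were at 0 in all 64 wells, and a count of 0 in 64 wells, taken as a floor of 3 wells, allows a share of up to 4.69% of wells with a count, a limit on counting error and not on cells that express the gene. In total, 12 wells held 1 marker gene, 2 wells held 2 and no well held 3 or more. Uninjected wells had a median of 141 cone marker counts, with a lowest value of 6.

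Rod markers were sparser still. The rod marker list took 0.0206% of the counts. *Pde6a*, a catalytic subunit of the rod phosphodiesterase, had 16 counts in 11 wells, and *Sag*, *Pde6b*, *Gnat1*, *Pde6g*, *Nrl* and *Cnga1* had between 1 and 4 counts each. Of the reporter locus, *Chrnb4*, a nicotinic acetylcholine receptor subunit, had 36 counts in 13 wells, 20 of them in well F07. In the uninjected library *Chrnb4* had 403 counts in 52 of 82 wells. Markers of Müller glia took 0.0350% of the counts in 20 wells, with 40 of their 73 counts on *Apoe*, an apolipoprotein, and microglia markers took 0.00336% in 5 wells. Bipolar, amacrine, horizontal and ganglion cell markers took between 0.00671 and 0.0177%, pigment epithelium markers 0.00384%, vascular markers 0.0144%, and the 1 erythrocyte marker with a row was at 0. Each of these lists took a smaller share of the counts than the cone list, but 428 of the 445 cone counts lay in 3 wells. By wells with a count the order differed. Cone markers had a count in 14 wells, bipolar markers in 21, Müller glia in 20 and horizontal markers in 18. Vascular markers had one in 18, rod markers in 17 and ganglion cell markers in 15. Amacrine, pigment epithelium and microglia markers had one in 11, 8 and 5.

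The 64 wells held 208578 counts over 15947 genes. A count is a read kept after duplicate removal by UMI and mapping position. Counts per well ranged from 420 to 15371 with a median of 2336, and genes per well from 223 to 3482 with a median of 949. The deepest 10 wells held 44.9% of all counts, and 17 wells had fewer than 1000. Genes followed depth closely across the 64 wells, with a Spearman correlation of 0.987 between counts and genes, which share the well's depth. Depth therefore stands behind every statement on detection. Thinned to 800 counts, which left out 11 shallower wells, the other 53 wells had 282 to 534 genes with a median of 417. The 33 wells in plate columns 1 to 6 had a median of 1843 counts and the 31 wells in columns 7 to 12 one of 2692, and their ranges overlapped almost wholly. Uninjected wells were deeper, with a median of 8118 counts and 1793 genes.

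**Figure D1:**
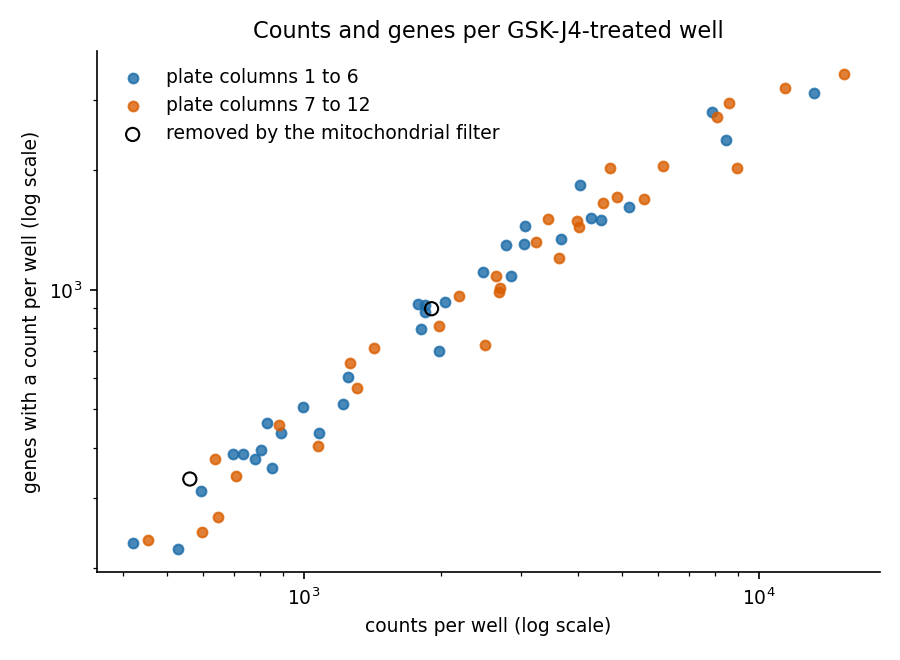
Each point is 1 well of the GSK-J4-treated plate, with its counts on the x axis and its genes with a count on the y axis, both on log scales, coloured by plate side. The 64 kept wells run from 420 counts to 15371 along 1 band, and the 2 open circles are wells that the mitochondrial filter removed.

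Most genes were seen rarely. Of the 15947 genes, 13603 had a count in the treated library, 2777 of them in 1 well alone, and 10466 in under 10% of wells. At the other end, 222 genes were detected in 50% of wells or more, 76 in 75% or more and 19 in all 64. Of the 73437 pairs of gene and well with a count, 76.7% stood at exactly 1 count, and the 3.0% of pairs with 10 or more counts held 49.5% of all counts. In the uninjected library 57.6% of such pairs stood at 1. A typical treated well was thus a long list of single counts plus a few genes with very many.

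The 20 genes with the highest mean level, in counts per 10000 counts of the well averaged over wells, took 27.7% of all counts, and between 12.9 and 54.3% of a single well with a median of 25.5%. These levels are not divided by length and rank genes by counts, not by expression per length. *Pcdhb13*, a clustered protocadherin of cell adhesion, led with a mean of 433 per 10000 (wells from 175 to 2077, median 361). 7420701I03Rik, a long noncoding RNA, had a mean of 356 per 10000 (22.1 to 1127, median 339). *Cttnbp2nl*, a cortactin-binding protein, had a mean of 304 per 10000 (126 to 1901, median 265). All 3 were counted in every well, never with fewer than 10 counts. Per 10000 counts and kb of exon the order changed, with 7420701I03Rik at 483, the cytokine *Il18* at 159 and *Pcdhb13* at 117, because the noncoding RNA has 737 bases of exon and *Pcdhb13* has 3710. Of the 20 genes, 14 were also among the leading 20 of the uninjected library, which is 70% of each list.

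Some of the leading genes have related roles. The actin and membrane skeleton was represented by *Add2*, beta-adducin, at a mean of 161 per 10000, by *Shroom2* at 92.4, and by *Unc45b*, a myosin chaperone, at 101. Ion handling was represented by *Trpm4*, a calcium-activated cation channel, at 144, by *Slc34a2*, a sodium phosphate cotransporter, at 78.2, and by *Cacna1a*, the pore of a voltage-gated calcium channel, at 52.7. *Prelp*, a matrix proteoglycan, had a mean of 128, *Esrp2*, an epithelial splicing regulator, one of 58.6, and *Kif23*, a mitotic kinesin, one of 75.2. None of the 20 was on the cone, rod or photoreceptor lists. Gm45336 and C030037D09Rik, 2 further noncoding RNAs, had means of 118 and 46.1, and *Vwa3b*, *Pcdhb17*, *Ccdc93*, *Hdhd2* and *Zfp277* completed the list with means of 114, 74.98, 59.6, 52.8 and 51.3. *Pcdhb13* and *Pcdhb17* belong to a family of similar genes, and whether reads were split between them was not tested. Several of the 20, such as *Add2*, *Esrp2* and *Cttnbp2nl*, overlap a gene on the other strand.

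The means hid large differences between wells. *Il18* ranged from 4.45 to 694 per 10000, and its count had a Spearman correlation of 0.44 with depth over the 64 wells, whereas *Cttnbp2nl* and *Add2* had 0.95 and 0.97. *Vwa3b* had 677 of its 1869 counts in well H02, and its mean was 61.8 per 10000 without that well against 114 with it. *Zfp277* had 183 of 314 counts in well A11, and its mean was 7.13 without it against 51.3. *Kif23* had a mean of 7.08 without its top well against 75.2. For *Esrp2*, *Hdhd2*, *Cacna1a* and C030037D09Rik the means without the top well were 26.8, 22.6, 30.3 and 25.1. For 7 of the 20 leading genes the mean was over 1.5 times higher with the top well than without it.

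**Figure D2:**
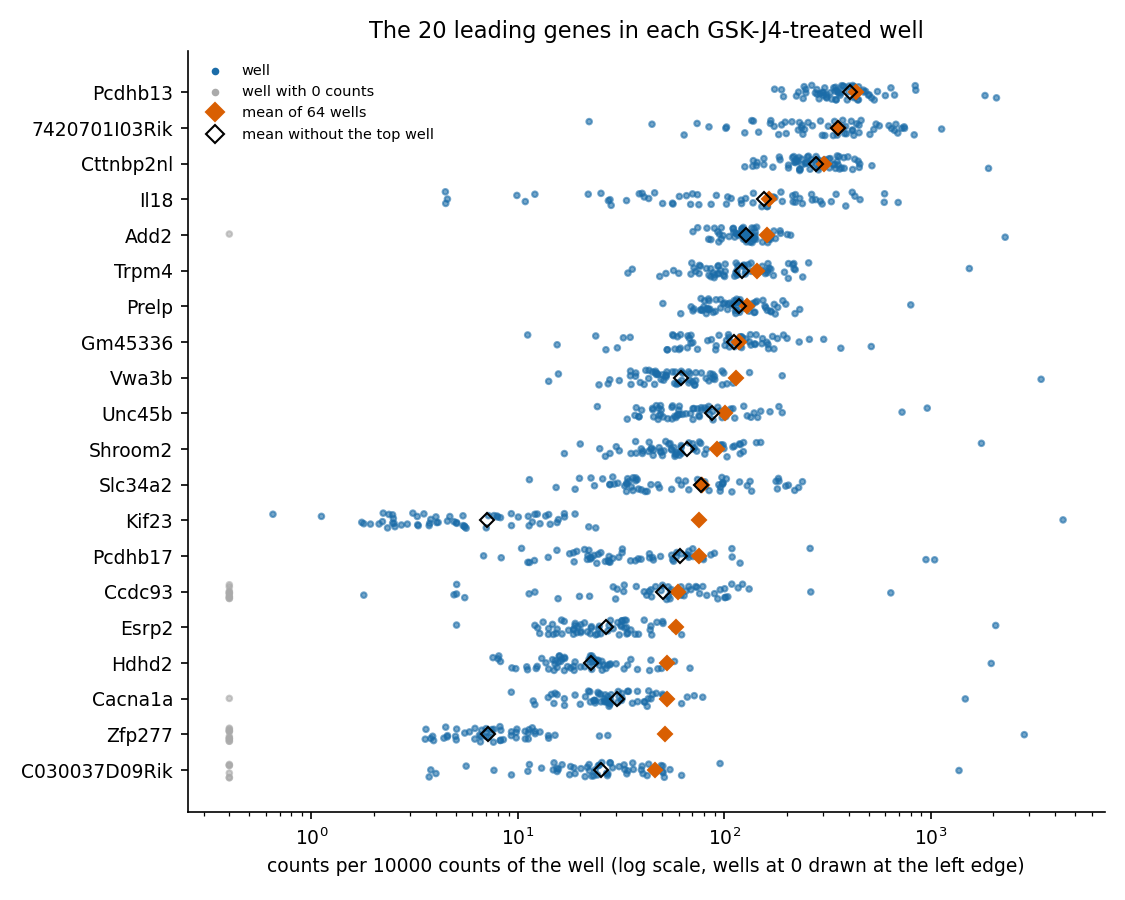
Each blue point is 1 well for 1 of the 20 leading genes, placed by its counts per 10000 counts of the well on a log axis, filled diamonds are means over 64 wells and open diamonds means without the gene's top well. Most genes form a band with 1 or a few wells far to the right, and for *Kif23* the mean of 75.2 lies far outside its band.

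The 4 genes that mark this library were among the most widely detected. *Mgmt* repairs alkylated guanine, *Kif23* builds the midzone of the mitotic spindle, *Hcar2* is a receptor for nicotinic acid and ketone bodies, and *Smtnl1* is a smoothelin-like protein of muscle. Promoter windows of 300 bases from RefSeq, on build GRCm38.p6, were found by symbol for 3 of the 4, and none for *Hcar2*. They are shown because the mark that GSK-J4 acts on can lie at promoters, although no histone mark was measured in this library. The windows are chr7:136894336-136894635 on the + strand for *Mgmt* (the first of 2 listed starts), chr9:61946750-61947049 on the - strand for *Kif23* and chr2:84822603-84822902 on the - strand for *Smtnl1*, each from 250 bases before the start to 50 after it, written 5′ to 3′ with every CG dinucleotide in capitals.
Mgmt: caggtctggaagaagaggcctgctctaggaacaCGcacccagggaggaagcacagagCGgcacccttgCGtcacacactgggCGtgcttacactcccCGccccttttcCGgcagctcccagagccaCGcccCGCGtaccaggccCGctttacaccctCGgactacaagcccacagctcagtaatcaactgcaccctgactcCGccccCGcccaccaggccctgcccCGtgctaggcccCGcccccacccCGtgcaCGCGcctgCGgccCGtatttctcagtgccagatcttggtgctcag
Kif23: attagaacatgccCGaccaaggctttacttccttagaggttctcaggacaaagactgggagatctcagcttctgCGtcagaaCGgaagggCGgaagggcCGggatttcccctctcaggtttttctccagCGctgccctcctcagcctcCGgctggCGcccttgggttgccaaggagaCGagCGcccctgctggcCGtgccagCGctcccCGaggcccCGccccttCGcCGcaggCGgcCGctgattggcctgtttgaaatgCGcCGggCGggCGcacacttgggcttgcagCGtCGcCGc
Smtnl1: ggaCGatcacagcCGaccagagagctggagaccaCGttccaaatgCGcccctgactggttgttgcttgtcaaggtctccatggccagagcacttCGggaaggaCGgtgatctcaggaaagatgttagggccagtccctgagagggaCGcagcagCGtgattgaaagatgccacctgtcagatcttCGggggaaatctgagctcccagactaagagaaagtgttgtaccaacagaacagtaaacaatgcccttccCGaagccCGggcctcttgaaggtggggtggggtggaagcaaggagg
CG, which reads the same on both strands, occurred 20 times in the *Mgmt* window, 25 times in that of *Kif23* and 11 times in that of *Smtnl1*, and 26.8, 18.4 and 41.9% of all 27025 promoter windows of this length held at least as many.

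All 4 genes had a count in every one of the 64 wells, and nearly all of those counts were exactly 1. *Mgmt* stood at 1 count in 63 wells and at 2143 in well D07. *Hcar2* stood at 1 count in 63 wells and at 583 in well C02. *Kif23* stood at 1 count in 53 wells, at 2 in 10 wells and at 5763 in well F01. No well was at 0, whatever its depth. *Smtnl1*, which had no high well, stood at 1 count in 61 wells and at 2 in 3, for 67 counts in all. No other gene of similar total was spread like this. The 288 genes with 50 to 100 counts had a count in a median of 35.9% of wells, and *B3gnt9*, second to *Smtnl1* among them, in 82.8%. Both wells that the filter removed also held exactly 1 count of each of the 4 genes.

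A count that stays at 1 becomes a falling share as wells deepen. In the 16 shallowest wells, of 420 to 891 counts, the median level of *Mgmt* was 14.2 per 10000. In the next 16 it was 6.32, then 3.28, and in the 16 deepest, of 4276 to 15371 counts, it was 1.71. The median count was 1 in each of these sets of 16. *Hcar2* gave 14.2, 6.32, 3.28 and 1.45 per 10000 in the same order. *Pcdhb13* by contrast had median counts of 34, 62.5, 117 and 175, and *Themis3*, of the thymocyte selection family, had 1.5, 3, 8 and 16, so both were counted more often in deeper wells. *Themis3* had 483 counts in 95.3% of wells, with a highest count of 32, and no count in the 82 uninjected wells. In uninjected wells *Mgmt* had 3 counts in 3 wells, *Smtnl1* 3 counts in 3 wells, *Hcar2* 21 counts in 5 wells and *Kif23* 149 counts in 21 wells. Thinned to 800 counts, the 4 marker genes had a count in 28.3 to 37.7% of the 53 wells.

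**Figure D3:**
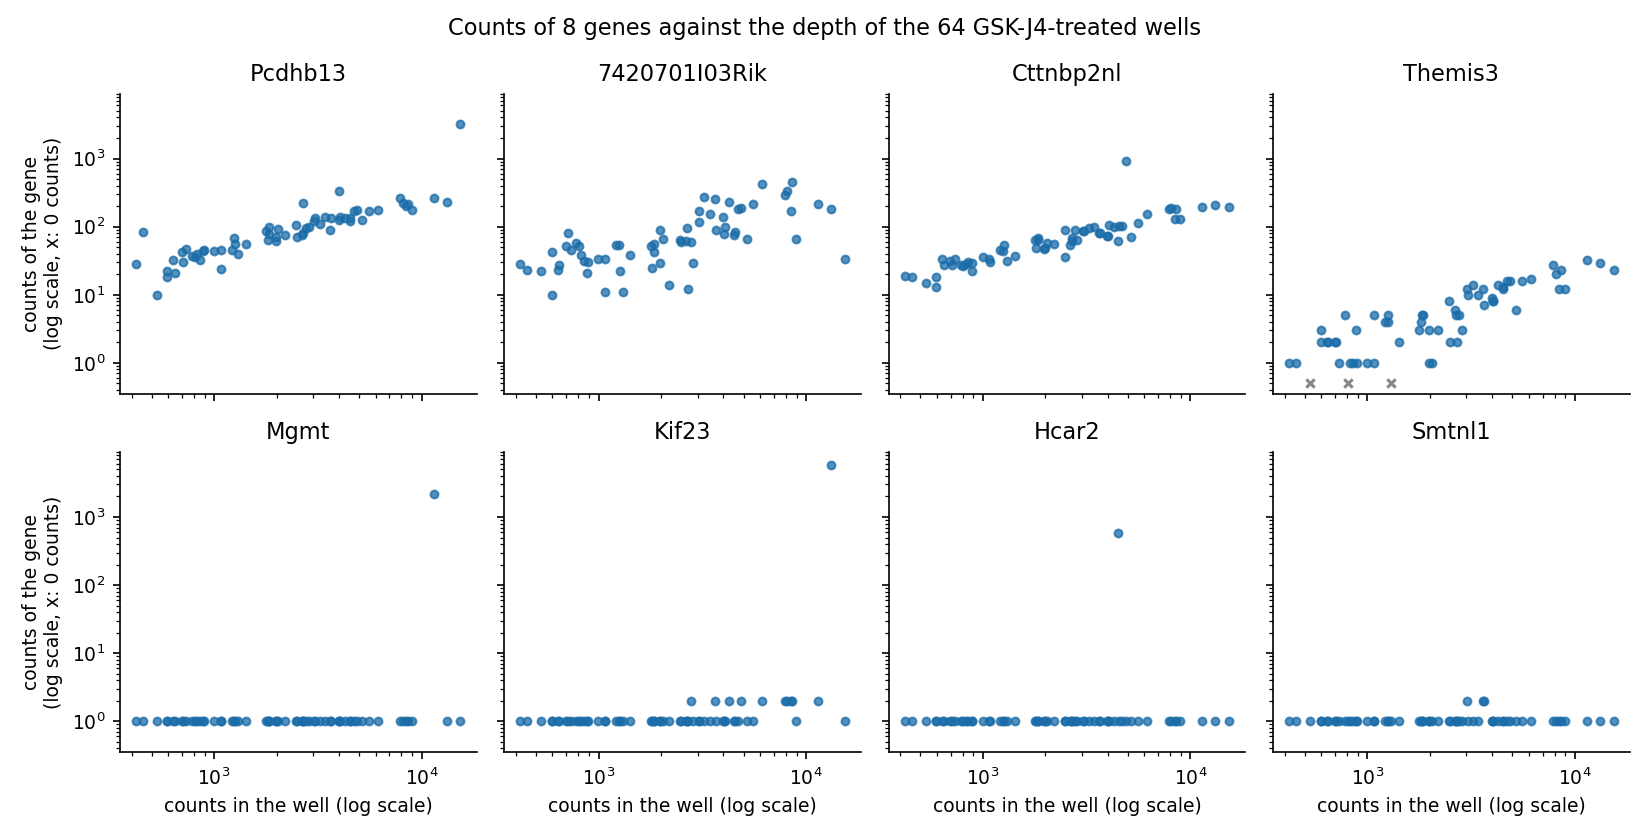
Each panel plots, for 1 gene, its count in a well against the well's total counts, both on log scales, for the 64 GSK-J4-treated wells, with grey crosses for wells at 0. *Pcdhb13*, 7420701I03Rik, *Cttnbp2nl* and *Themis3* climb with depth, while *Mgmt*, *Kif23*, *Hcar2* and *Smtnl1* lie on a line at 1 or 2 counts, with single high wells of 2143, 5763 and 583 for the first 3.

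The marker genes belonged to a larger group. Of the 76 genes detected in 75% of wells or more, 25 stood at exactly 1 count in at least 75% of the wells that had them. This group and its limits were set after the values were seen. The second-highest count was at most 2 for 21 of the 25, and 22 had a top well of at least 20 counts, in 14 different wells. Besides the 4 marker genes the group held *March7*, a ubiquitin ligase, with 960 counts in well B07 and 1 in 61 wells, and *Cmklr1*, the chemerin receptor, with 118 in well B09 and 1 in 58. *Eci1*, an enzyme of fatty acid oxidation, had 282 in well C12 and 1 in 56 wells, and *Psd3*, an exchange factor for Arf6, had 153 in well F09 and 1 in 55. *Slc5a3*, a myo-inositol transporter whose exons overlap *Mrps6*, had 102 in well H08 and 1 in 58. *Sin3a*, a scaffold of histone deacetylase complexes, had 111 in well E02 and 1 in 52, and *Ank1*, an ankyrin of the membrane skeleton, 321 in well E11 and 1 in 46. Apart from *Smtnl1*, *Thg1l*, a tRNA guanylyltransferase, was the other gene of the group that was never above 2 counts, with 56 counts in 78.1% of wells. The group was set by its count pattern, and shared function was not tested.

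Most of the other 51 widely detected genes had higher counts in deeper wells. Their counts had a median Spearman correlation of 0.82 with well depth (0.25 to 0.97), and 42 of them reached 0.7. The median was 0.46 in the 25 genes (0.02 to 0.63), so the ranges overlapped. This is a description over the same 64 wells since the group was chosen by its counts. In the uninjected library the 51 genes had a count in a median of 92.7% of wells and 42 of them in at least 75%. The 25 genes had a count in a median of 10.98% of uninjected wells, and none reached 75%. The uninjected library had 4 genes of its own with such a pattern among its 265 widely detected genes, none of them shared with the 25. Single counts were also common there on some cone genes, with 53 of 82 uninjected wells at exactly 1 count of *Opn1mw* and 48 at exactly 1 count of *Pde6h*, but *Opn1sw*, *Guca1a* and *Gngt2* stood at exactly 1 in 1, 1 and 3 wells and had median counts of 22, 23 and 29. Absence of a single count went with depth in the treated wells, since the 16 shallowest lacked 4 to 15 of the 25 genes and the 16 deepest lacked 0 to 2.

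The number of wells with a single count went together with the size of the high well. Over the whole treated library, 202 genes had 1 well with at least 20 counts and at most 2 counts in any other well. Those with 20 to under 30 counts in the high well had a count in a median of 28.1% of wells. The median was 34.4% for 30 to under 50 counts, 50% for 50 to under 100 and 73.4% for 100 to under 500. The 4 genes with 500 or more, *Kif23*, *Mgmt*, *March7* and *Hcar2*, had a count in 96.9 to 100% of wells. Across the 202 genes the Spearman correlation between the high count and the number of wells was 0.77 (Pearson's r 0.76 on the log10 count), a description over genes that share wells and library. Their high wells were 41 different wells. In the uninjected library 72 genes met the same limits, and the medians there were 10.98% of wells for 20 to under 30 counts, 13.4% for 30 to under 50 and 18.9% for 50 to under 100.

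A set of genes stood apart from this pattern, with a high well and hardly any single counts. Of the 202 genes, 19 had a count in under 10% of treated wells, and 15 of these had a count in over 50% of the uninjected wells, against 4 of the other 183. They included the cone genes *Opn1mw*, with 303 counts in its high well and 2 wells with a count, *Pde6h* and *Arr3*, the thyroid hormone receptor *Thrb*, and the respiratory chain genes *Cox8a*, *Ndufc2*, mt-Co3 and mt-Nd6. *Cox8a* had 32 counts in well G07 and 0 in all others, and a count in all 82 uninjected wells. Part of this uninjected detection was itself at exactly 1 count. That held in 53 of 82 wells for *Opn1mw*, 48 for *Pde6h*, 37 for mt-Co3 and 23 for *Cox8a*. The share of all genes with a count in over 50% of uninjected wells was not worked out. Whether a single count, in either library, is a molecule of the well's own cell or a read assigned from another well or library was not tested. Detection of single-count genes in all wells therefore does not show expression in all cells.

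**Figure D4:**
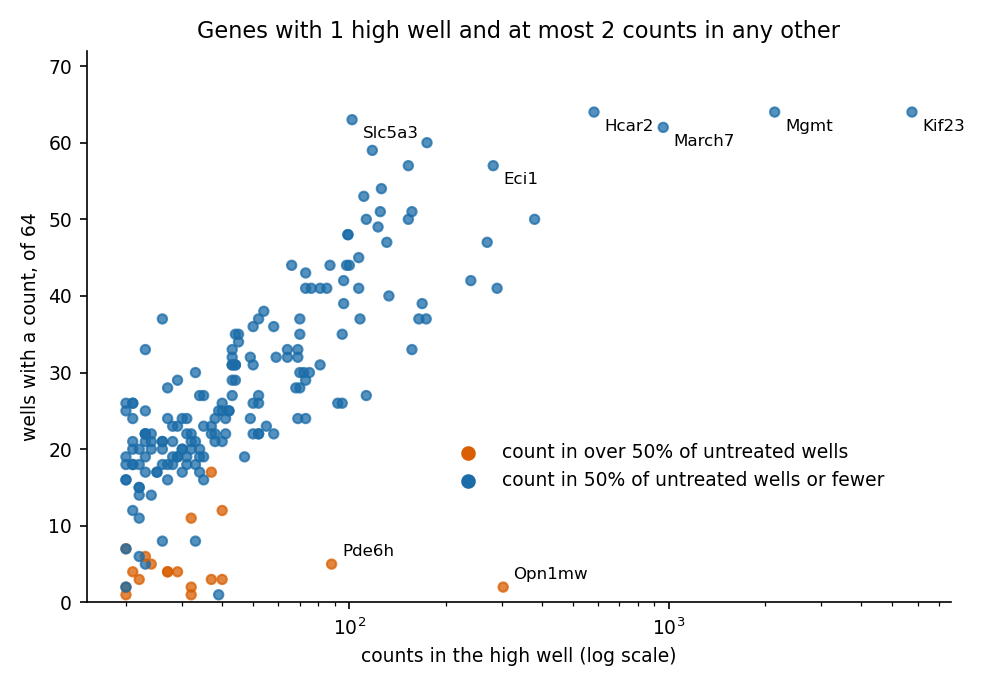
Each point is 1 of the 202 genes with 1 well of at least 20 counts and at most 2 counts in any other well, placed by the count in the high well on a log x axis and by the number of the 64 wells with a count on the y axis. The cloud climbs to 64 wells for *Hcar2*, *Mgmt* and *Kif23*, and *Opn1mw* and *Pde6h*, among the genes found in over 50% of uninjected wells, lie far under it at 2 and 5 wells.

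Much of the library lay in such high wells. Among the 494 genes with at least 50 counts, the median share of a gene's counts from its top well was 49.5%, and 246 genes had at least 50% from 1 well. These 246 genes held 23.8% of all counts, and their top wells alone held 17.1%. The top wells were 49 of the 64 wells, with 18 such genes in H11, 15 in E02 and 14 in D07. In a single well such genes took up to 45.9% of the counts, with a median of 6.97%. By share from the top well *Opn1mw* led at 99.7%, followed by *Kif23* at 98.7%, *Mgmt* at 97.1%, *Pde6h* at 95.7% and *March7* at 94.0%. The most even were *Smtnl1* at 2.99%, *Thg1l* at 3.57%, Olfr1185-ps1 of the olfactory receptor family at 5.77%, *Slfn5* at 5.88% and *Themis3* at 6.63%. The 2 plates shared 57 well positions, and 5 of the 246 genes had their top well at the same position on the uninjected plate. How many would match with unrelated positions was not worked out, so nothing is read from this number.

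The leading gene of a well differed from well to well. There were 38 different leading genes, of which *Pcdhb13* led in 15 wells, 7420701I03Rik in 13 and the other 36 in 1 well each. The share taken by the leading gene ranged from 2.88 to 43.6% with a median of 7.41%. *Kif23* took 43.6% of well F01, *Vwa3b* 34.2% of H02, *Zfp277* 28.3% of A11, *Psd3* 25.7% of F09 and *Add2* 22.9% of D11. F01 and D11 were the 2 deepest wells, whereas A11 and F09 had 646 and 596 counts, so a dominant gene was found at either end of the depth range.

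Gene classes set by symbol showed where the counts lay. Protocadherins took 5.53% (95% counting interval 5.44 to 5.63%), and 9603 of their 11541 counts were on *Pcdhb13*. Predicted and clone-named genes took 11.4%, solute carriers 1.94%, zinc finger genes 1.60%, and olfactory and vomeronasal receptors 1.42%. Of 395 olfactory and vomeronasal receptor genes, which belong to the nose and not the retina, 352 had a count. Over all genes 13603 of 15947 had one, a similar share, so this number is not particular to the family. Every well had at least 0.282% of its counts on these receptors, and *Olfr66* and *Olfr111* led with 369 and 357 counts. *Olfr111* had 294 of these in well A08. Many genes of this family are near-identical copies, so their counts are uncertain by gene.

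Genes that nearly every cell uses were scarce. The 83 cytosolic ribosomal protein genes took 0.235% (0.215 to 0.257%), against 3.65% in uninjected wells. Of the 83, 40 had no count, and over all genes 2344 of 15947 had none. The 77 nuclear genes of oxidative phosphorylation took 0.181% (0.163 to 0.200%), against 3.48%. The 13 mitochondrially encoded genes took 0.256% in 33 wells, with 220 of their 533 counts in well D11, and 0.162% without that well. A set of 16 housekeeping genes had 28 counts in 18 wells, with 1 count each for *Actb* and *Gapdh* and none for *Eef1a1*. Even the more abundant members were patchy, with *Rps14* at 65 counts in 9 wells and *Uqcrh* at 69 in 25. The list of 6 nuclear long noncoding RNAs took 0.0973% here, 0.0783% without well F01, and 0.0885% in uninjected wells. Its members differed. *Kcnq1ot1* had 59 counts in 28 wells, and a count in 37 of 82 uninjected wells. *Malat1* had 51 counts in 12 wells, 40 of them in F01, and a count in 78 of 82 uninjected wells. In the counts of a single gene, fewer molecules of the gene and fewer molecules captured from a well cannot be told apart. The cause of the lower shares was not tested.

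Some class totals were 1 gene in 1 well. The list of 14 genes of mitosis and cytokinesis, of which 10 passed the filter, took 2.82% of the counts, but 5764 of their 5877 counts lay in well F01, and they took 0.0578% without it. *Racgap1*, the partner of *Kif23* in the spindle midzone, had 11 counts in 6 wells, *Top2a* 6 and *Mki67*, a marker of dividing cells, 5. The DNA repair list, with 15 of 18 genes past the filter, took 1.38%, and 0.362% without well D07, where *Mgmt* had its 2143 counts. In that list *Parp1*, a sensor of DNA breaks, had 261 counts in 54 wells, *Ercc4* 189 counts with 157 in well E02, and *Rpa2* 130 counts with 87 in well C11. Hydroxycarboxylic acid and chemerin receptors took 0.396% and, without well C02, 0.119%, with *Hcar1*, the lactate receptor beside *Hcar2*, at 4 counts. Cone markers took 0.213% and, without the same well C02, 0.0696%. In each of these lists 1 member with a high well held most of the counts.

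The genes around the drug's target were detected at low levels. *Kdm6a* and *Kdm6b*, the demethylases that GSK-J4 inhibits, had 9 counts in 6 wells and 13 counts in 11 wells. *Ezh1* and *Ezh2*, which write the mark, had 2 and 5 counts, *Suz12* 1 and *Eed* 10, and *Jarid2*, an accessory subunit, 18. All 9 genes of this list had a count, for 65 counts in 30 wells, a share of 0.0312% (0.0241 to 0.0397%), against 0.0277% in uninjected wells. Over all genes 13603 of 15947 had a count, so having one is not particular to this list. Apoptosis genes had 51 counts in 26 wells, stress response genes 6 in 5 wells and immediate early genes 43 in 17 wells. At this depth such lists rest on few counts.

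**Figure D5:**
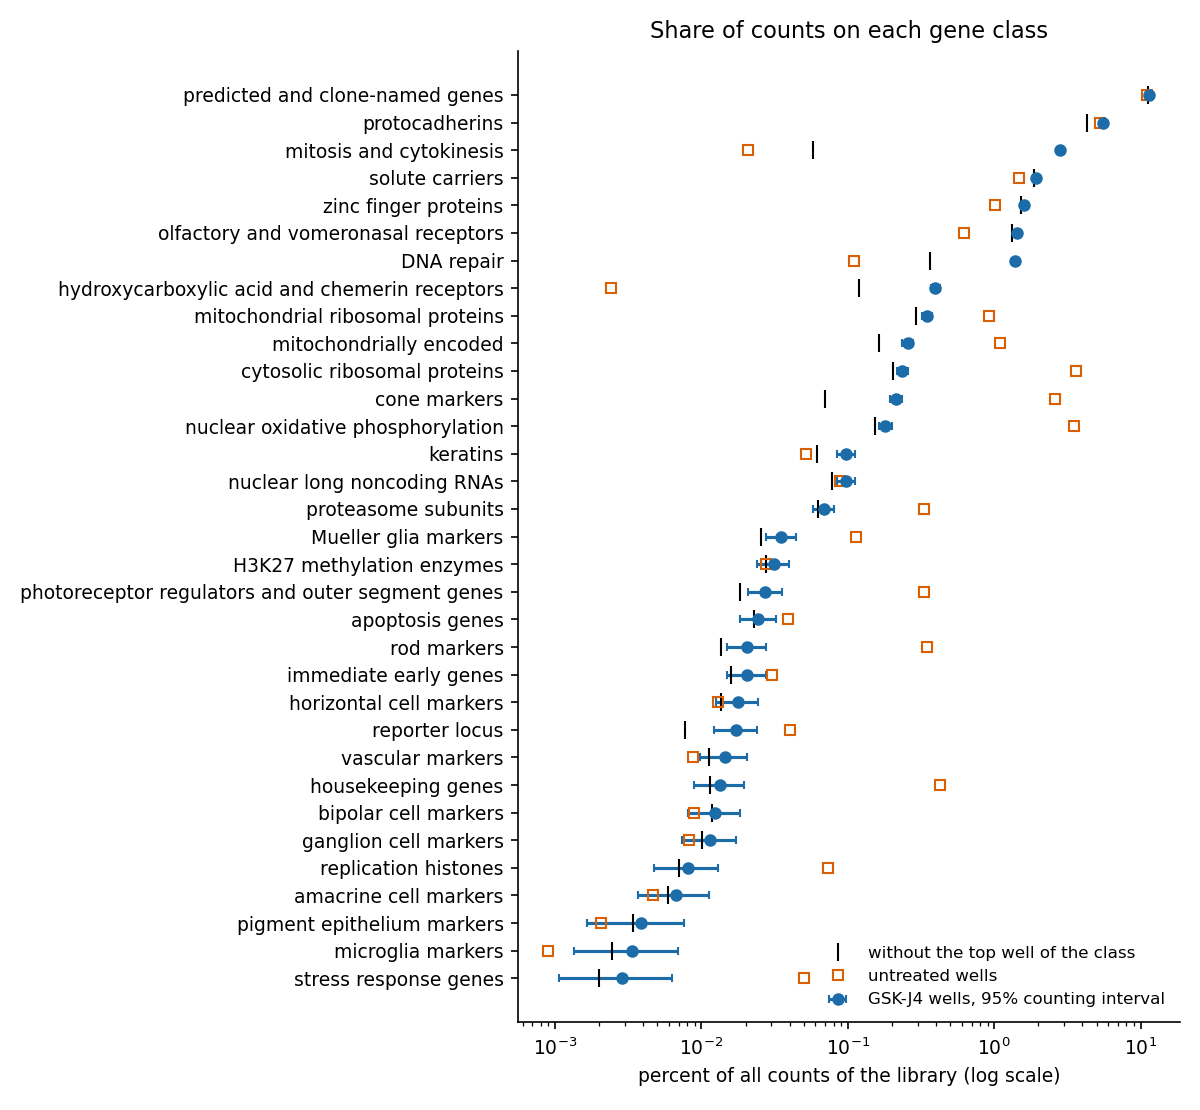
For each gene class with a count, the blue point is its percent of all counts in the 64 GSK-J4-treated wells with the 95% counting interval, the black bar the percent without the class's top well and the open square the percent in uninjected wells, on a log axis. Mitosis and cytokinesis drops from 2.82 to 0.0578% without its top well, while ribosomal protein, oxidative phosphorylation and cone marker genes lie under their uninjected squares.

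By annotation, protein-coding genes held 87.9% of the counts, long intergenic noncoding RNAs 7.98% and antisense genes 2.16%, with 175 gene symbols not matched. Exon length differed with breadth of detection. The median was 2.58 kb for genes without a count, 4.24 kb for genes in under 10% of wells, 6.79 kb for those in 10 to 25%, and 5.03 kb for those in at least 75%. Long genes were thus common among the moderately detected ones, and the widely detected genes lay near the median of 4.28 kb over all genes.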

How the data were processed

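RNA of GFP-sorted retinal cells of 1 GSK-J4-treated and 1 untreated library was sequenced. The authors deposited whole-number counts per gene and cell, not normalized. They aligned reads in the CLC Genomics Workbench to a genome given as GRCh38 Mus-Musculus, a human build number, removed duplicates by an 8-nt UMI, and summed 3' and 5' counts from featureCounts. Whether counting used strand was not given in the sources used here. No batch correction was applied. As in the methods, genes detected in 3 or more cells of the series were kept, as were cells with 200 genes or more and no more than 5% of counts on mitochondrial genes. This left 15947 of 17774 genes and 64 of 66 treated wells (A10 and B03 were removed).

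Levels are counts per 10000 counts of a well. Shares have Clopper-Pearson intervals at 95%, which, like the floor of 3 wells, cover counting error only. Wells of 1 library are not replicates, so no test was run, and no doublet caller was used for sorted single cells. Named genes were the 20 leading and 20 most widely detected genes, the 4 markers, the 5 most and 5 least even genes, the 5 taking the highest share of a well, and the 2 most counted members of each list, with others chosen after their values were seen. Members and lists were chosen with earlier results of these data known. Gene positions and exon lengths are of GENCODE vM21 on GRCm38, which matched 15772 genes by symbol. Calculations used scipy 1.17.1, numpy 2.4.6 and pandas 2.3.3 under Python 3.11.15 and were tested on simulated data. Alternatives were the cell, gene and depth filters, thinning, plate side, weighting and single wells left out. Results of some single genes are left out of the text.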

Additional observations from a re-analysis of the deposited data

How the results depend on the processing

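Of 75 alternatives to the values above, 41 stayed within the counting interval of the value given (or, for counts of genes, within 1.5 times it), and 34 moved outside it. Wells with at least 500 genes, 46 of the 64, had a median of 3144 counts and 1314 genes, 138 genes in at least 75% of wells, and 28.98% of counts on the 20 leading genes. Thinning to 800 counts gave a median of 417 genes, 26 genes in at least 75% of wells, 25.7% on the leading genes and 90.6% of wells without a cone marker count. Counting a gene as present only from 2 counts left 28 genes in at least 75% of wells, and 90.6% of wells had fewer than 2 cone marker counts. The share of the 20 leading genes was 27.9% in columns 1 to 6, 30.3% in columns 7 to 12, 26.0% without the deepest well, 28.9% with genes ranked by summed counts and 24.4% with genes ranked per kb of exon. On levels per 10000 the median share of a gene from its top well was 41.3%.

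For gene classes, columns 1 to 6 and columns 7 to 12 gave 0.141 and 0.304% for cytosolic ribosomal proteins, 0.172 and 0.317% for mitochondrially encoded genes, and 0.399 and 0.0765% for cone markers. The mean over wells of the share per well was 0.154% for cytosolic ribosomal proteins, 0.157% for mitochondrially encoded genes, 1.48% for olfactory and vomeronasal receptors and 0.172% for cone markers. Without the deepest well the olfactory and vomeronasal receptors took 1.48% and the mitochondrially encoded genes 0.162%, and with all 66 wells the latter took 0.322%. Without the well with the most counts of the class, an alternative chosen after seeing the data, the shares were 0.204% for cytosolic ribosomal proteins, 0.154% for nuclear oxidative phosphorylation, 0.162% for mitochondrially encoded genes, 1.32% for olfactory and vomeronasal receptors and 0.0696% for cone markers. Apart from filters that by construction keep deeper wells or fewer counts, the cause of these moves was not tested.

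The ratio of the median counts of the left to the right plate side was 0.685. No paired analysis was possible because each condition was 1 library. The depth of a median of 2336 counts per well limits what absence of a count says, and the plate, the treatment and the animals cannot be told apart.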
